A study of Mus musculus with 12 samples.

Results

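The genes described here are 10 transcripts that mark lung fibroblasts and the matrix they make: Dcn, Col1a1, Col1a2, Col3a1, Lum, Mgp, Pdgfra, Acta2, Inmt and Fn1. They were taken by name from the 21878 genes of the deposited table, to see how much mesenchymal RNA is present in libraries of sorted alveolar type II (AT2) cells. Dcn and Col1a2 were selected on their measured FPKM, which was high in Atg5-/- AT2-PBS, so the contrast of that group against AT2-PBS is given below as a description without a test.

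RNA-seq was done on AT2 cells of male C57BL/6 mice aged 8 to 12 weeks, in 4 groups of 3 samples. All animals carried floxed Atg5 alleles. AT2-PBS and AT2-BLM came from Atg5f/f mice, which have no Cre, after intratracheal PBS or 2 U/kg bleomycin (BLM, a drug that injures the alveoli). Atg5-/- AT2-PBS and Atg5-/- AT2-BLM came from Nkx2.1Cre;Atg5f/f mice given the same agents, in which Cre is active in the lung epithelium and removes Atg5, a gene needed for autophagy. Cells were taken 14 days after BLM, and the sources used here do not state the day for Atg5-/- AT2-PBS or how many mice went into a sample, so p-values measure only the spread between these samples. The sort kept EpCAM+ cells and discarded cells positive for CD31, CD34, CD45, CD24 or Sca-1, a gate meant to leave out endothelial, haematopoietic and mesenchymal cells.

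Fibroblasts are the main source of collagen I and III in the lung, and in the bleomycin model they make the collagen that scars the alveoli. Decorin (Dcn) and lumican (Lum) are small leucine-rich proteoglycans that bind collagen fibrils and set their spacing. Alveolar epithelial cells make basement membrane collagen and can make fibronectin under injury, whereas fibrillar collagen and decorin are not typical products of AT2 cells.

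Surfactant genes were the most abundant of the AT2 markers in each group, and the sum of 10 AT2 genes was 23958 to 41425 FPKM (fragments scaled to transcript length and to library depth) in the 12 samples. Sftpc, the defining surfactant gene, is listed at 0 in 11 samples and at 112570 FPKM in AT2-BLM replicate 2, so an exact 0 in this table can be a failed estimate, and Sftpc was left out of that sum. Atg5 itself was at 6.01 to 12.5 FPKM in AT2-PBS, 9.97 to 11.1 in AT2-BLM, 6.72 to 10.1 in Atg5-/- AT2-PBS and 8.37 to 8.84 in Atg5-/- AT2-BLM. The whole-gene value also counts the exons that a floxed allele keeps and is therefore no check of the genotype. AT2-BLM replicate 3 stood apart from its group, with Krt8 at 1266 FPKM against 565 and 566, Myl9 at 33.1 against 4.03 and 5.31, and the mesothelial gene Msln at 56.0 against 1.58 and 9.06, and the comparisons with AT2-BLM below are given with and without it.

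The members lie on 6 chromosomes of NCBIM37, the mouse build also called mm9. Dcn (10:96942245-96980777) and Lum (10:97028135-97035337) are neighbours on the + strand of chromosome 10, with 47357 bases between them. Col1a2 is at 6:4454814-4491543, Col1a1 at 11:94797538-94814356, Col3a1 at 1:45368383-45406551, Fn1 at 1:71632094-71699774, Mgp at 6:136820957-136824326, Inmt at 6:55120620-55125037, Pdgfra at 5:75548316-75594229 and Acta2 at 19:34315580-34329826. Col1a1 and Fn1 each overlap a gene on the opposite strand in the annotation, Gm17329 and Apol7d. The libraries were stranded, but whether counting used the strand is not stated in the sources used here.

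The promoters below show what stands in front of 4 members: Col1a2 and Col3a1, the fibrillar collagen genes that moved together across these samples, Inmt, which had the largest tested difference, and Acta2, the member whose groups overlapped in every comparison. Each line holds 250 bases before and 50 after the start that RefSeq gives (GRCm38.p6), read 5′ to 3′ on the gene's own strand. Each window was found once, letter for letter, in NCBIM37, at chr6:4455368-4455667 (+) for Col1a2, chr1:45368133-45368432 (+) for Col3a1, chr6:55124935-55125234 (-) for Inmt and chr19:34329814-34330113 (-) for Acta2. The Col1a2 window lies inside the gene model given above, whose annotated start is further upstream. Capitals mark 3 motifs, each searched on both strands, so that the reverse complement is in capitals too. They were CCAAT, a common promoter box, then TATAAA, the classical TATA box, and lastly CAGAC, the core that SMAD proteins bind in response to TGF-beta. Matches did not overlap each other in these windows.
Col1a2: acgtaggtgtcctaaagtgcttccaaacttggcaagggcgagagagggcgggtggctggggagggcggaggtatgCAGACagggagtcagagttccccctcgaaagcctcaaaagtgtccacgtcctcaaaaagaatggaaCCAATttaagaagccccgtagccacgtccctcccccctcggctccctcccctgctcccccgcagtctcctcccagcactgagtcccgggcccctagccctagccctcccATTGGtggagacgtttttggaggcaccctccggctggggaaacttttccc
Col3a1: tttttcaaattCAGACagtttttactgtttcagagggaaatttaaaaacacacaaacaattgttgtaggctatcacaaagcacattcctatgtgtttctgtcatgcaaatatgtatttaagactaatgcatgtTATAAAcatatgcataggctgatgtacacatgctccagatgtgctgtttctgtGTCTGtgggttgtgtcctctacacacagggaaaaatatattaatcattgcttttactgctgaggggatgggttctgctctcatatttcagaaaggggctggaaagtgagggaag
Inmt: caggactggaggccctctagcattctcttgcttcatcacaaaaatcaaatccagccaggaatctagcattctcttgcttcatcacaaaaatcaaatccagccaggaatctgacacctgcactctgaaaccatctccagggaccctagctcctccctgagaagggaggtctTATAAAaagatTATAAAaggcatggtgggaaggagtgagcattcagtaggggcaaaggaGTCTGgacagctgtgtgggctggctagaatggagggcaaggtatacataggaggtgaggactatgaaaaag
Acta2: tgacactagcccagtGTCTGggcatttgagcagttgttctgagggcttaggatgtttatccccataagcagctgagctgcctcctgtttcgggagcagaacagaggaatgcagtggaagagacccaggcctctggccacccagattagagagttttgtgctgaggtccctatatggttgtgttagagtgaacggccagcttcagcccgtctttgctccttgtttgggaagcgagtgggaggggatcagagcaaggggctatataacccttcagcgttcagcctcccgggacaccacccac
Of the 10 members, 5 had a promoter in the RefSeq table, the fifth being Pdgfra. Col1a2 held CCAAT 2 times and CAGAC 1 time, Col3a1 held TATAAA 1 time and CAGAC 2 times, Inmt held TATAAA 2 times and CAGAC 1 time, and Acta2 held CAGAC 1 time. CAGAC was in all 5 windows and in 49.6% of the 32851 promoters of the table, CCAAT in 37.4% and TATAAA in 13.6%. A match describes the letters and not a bound site.

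In AT2-PBS most members were low. Their summed level was 40.3, 88.7 and 32.6 FPKM in replicates 1 to 3, and Mgp and Inmt together made 77.2% to 88.7% of it. The 3 fibrillar collagen genes were at 0.351 to 2.38 FPKM, Fn1 at 0.151 to 0.547, and Lum and Pdgfra were each listed at 0 in at least 1 sample. Set against the 10 AT2 genes, the 10 members came to 0.127% to 0.244% of that sum. In AT2-BLM the share was 0.193% to 0.649%, in Atg5-/- AT2-PBS 1.18% to 1.81% and in Atg5-/- AT2-BLM 0.193% to 0.287%. Fewer fibroblasts in a sort and less fibroblast RNA per cell cannot be told apart in such bulk samples, nor can fibroblast RNA and RNA made by the AT2 cells.

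**Figure D1:**
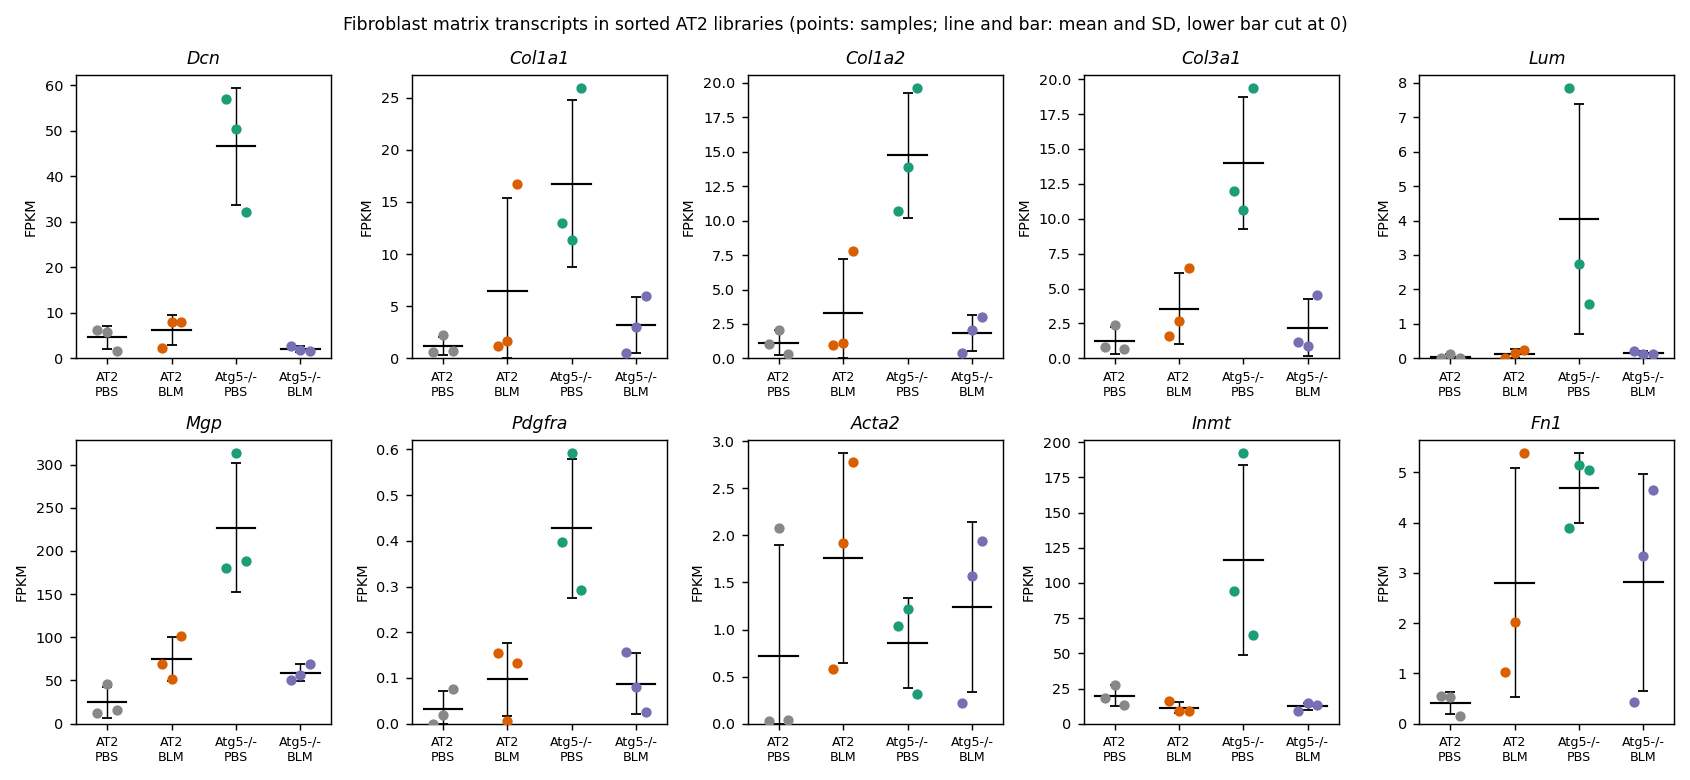
Level of each of the 10 members in FPKM (vertical axes, each from 0 with its own scale) in the 4 groups (horizontal axes). Points are the 3 samples of a group in order of replicate, with the mean as a line and the SD as a bar, and 9 of the 10 genes have all Atg5-/- AT2-PBS points above all AT2-PBS points.

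The fibrillar collagen genes encode the chains of collagen I (Col1a1, Col1a2) and collagen III (Col3a1). Col1a1 was at 0.625, 2.24 and 0.703 FPKM in AT2-PBS, 1.15, 1.63 and 16.7 in AT2-BLM, 12.98, 11.4 and 25.9 in Atg5-/- AT2-PBS and 0.550, 3.04 and 5.95 in Atg5-/- AT2-BLM. Col1a2 was at 1.01, 2.09 and 0.351 FPKM in AT2-PBS, 0.948, 1.11 and 7.80 in AT2-BLM, 10.7, 13.9 and 19.6 in Atg5-/- AT2-PBS and 0.411, 2.07 and 3.04 in Atg5-/- AT2-BLM. Both genes were high in the 3 Atg5-/- AT2-PBS samples and, outside that group, in AT2-BLM replicate 3, which for Col1a1 lay inside the Atg5-/- AT2-PBS range. Col3a1 was at 0.802, 2.38 and 0.639 FPKM in AT2-PBS, 1.60, 2.66 and 6.45 in AT2-BLM, 12.0, 10.6 and 19.4 in Atg5-/- AT2-PBS and 1.16, 0.920 and 4.54 in Atg5-/- AT2-BLM. Its Atg5-/- AT2-PBS samples lay above all 9 others. The remaining 3 groups overlapped one another for each of the 3 collagen genes.

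The proteoglycan genes were high in a single group. Dcn was at 6.16, 5.91 and 1.72 FPKM in AT2-PBS, 2.38, 8.04 and 8.09 in AT2-BLM, 57.1, 50.5 and 32.2 in Atg5-/- AT2-PBS and 2.76, 1.78 and 1.67 in Atg5-/- AT2-BLM. Within a sample Dcn ranked 1085th to 1748th of all 21878 genes in Atg5-/- AT2-PBS and 4490th to 8448th in the other 9 samples. Lum read 0, 0.126 and 0 FPKM in AT2-PBS, 0, 0.169 and 0.252 in AT2-BLM, 7.84, 2.72 and 1.58 in Atg5-/- AT2-PBS and 0.214, 0.114 and 0.117 in Atg5-/- AT2-BLM. Every Lum value outside Atg5-/- AT2-PBS was under 1 FPKM, so Lum passed the filter on low values through that group alone.

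Mgp encodes matrix Gla protein, a secreted inhibitor of calcification that fibroblasts, vascular cells and some epithelial cells make. It had the highest mean of the members over the 12 samples, at 12.6, 45.6 and 15.4 FPKM in AT2-PBS, 69.2, 52.2 and 102 in AT2-BLM, 180, 313 and 188 in Atg5-/- AT2-PBS and 50.5, 56.9 and 69.5 in Atg5-/- AT2-BLM. Its groups stood in steps, with every AT2-PBS sample below every BLM sample of both genotypes and every Atg5-/- AT2-PBS sample above all others. Inmt encodes an indolethylamine N-methyltransferase that is abundant in lung. It was at 18.6, 27.7 and 13.5 FPKM in AT2-PBS, 15.8, 9.05 and 8.81 in AT2-BLM, 94.3, 192 and 63.1 in Atg5-/- AT2-PBS and 9.35, 14.3 and 12.99 in Atg5-/- AT2-BLM. As for Mgp, the Atg5-/- AT2-PBS samples lay above all others, but the BLM groups overlapped the lower end of AT2-PBS.

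Fn1, the gene of fibronectin, was at 0.547, 0.523 and 0.151 FPKM in AT2-PBS, 1.03, 2.02 and 5.37 in AT2-BLM, 3.89, 5.13 and 5.04 in Atg5-/- AT2-PBS and 0.434, 3.34 and 4.65 in Atg5-/- AT2-BLM. Atg5-/- AT2-BLM replicate 3 lay inside the Atg5-/- AT2-PBS range and AT2-BLM replicate 3 above it. Acta2, the smooth muscle actin of myofibroblasts, was at 0.0299, 2.08 and 0.0433 FPKM in AT2-PBS, 0.578, 1.92 and 2.78 in AT2-BLM, 1.03, 1.22 and 0.317 in Atg5-/- AT2-PBS and 0.223, 1.56 and 1.94 in Atg5-/- AT2-BLM. All 4 groups overlapped for Acta2. Its coding sequence is close to that of other actin genes, so its reads may be split with them. Acta1, the skeletal actin gene chosen for this check after its values were seen, was at 0 to 0.790 FPKM in AT2-PBS, 3.13 to 7.16 in AT2-BLM, 8.03 to 26.6 in Atg5-/- AT2-PBS and 0.954 to 23.6 in Atg5-/- AT2-BLM. Pdgfra, the platelet-derived growth factor receptor that marks alveolar fibroblasts, was the lowest member. It was at 0, 0.0195 and 0.0764 FPKM in AT2-PBS, 0.154, 0.00572 and 0.132 in AT2-BLM, 0.398, 0.592 and 0.293 in Atg5-/- AT2-PBS and 0.158, 0.0810 and 0.0245 in Atg5-/- AT2-BLM, never reaching the 1 FPKM needed for testing.

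In Atg5-/- AT2-PBS against AT2-PBS, the contrast through which Dcn and Col1a2 entered the list, 9 of the 10 members had all 3 samples above all 3 AT2-PBS samples, and Acta2 overlapped. Over all 10675 genes tested, 18.1% were higher without overlap and 28.9% did not overlap in either direction. The mean level was 46.6 FPKM ± 12.9 (SD, n = 3) against 4.60 ± 2.49 for Dcn, a ratio of 10.1. The ratio of means was 14.1 for Col1a1, 12.8 for Col1a2, 10.98 for Col3a1, 11.5 for Fn1, 9.26 for Mgp and 5.86 for Inmt. On the log2(FPKM + 1) scale, which understates the change of low genes, the difference was 3.34 for Mgp, 3.18 for Dcn, 2.08 for Lum, 0.46 for Pdgfra and 0.28 for Acta2, with a median of 2.58 over the 10 members against 0.0188 over all genes tested. Since the list was drawn up with this contrast in view, the count is no evidence about the members.

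**Figure D2:**
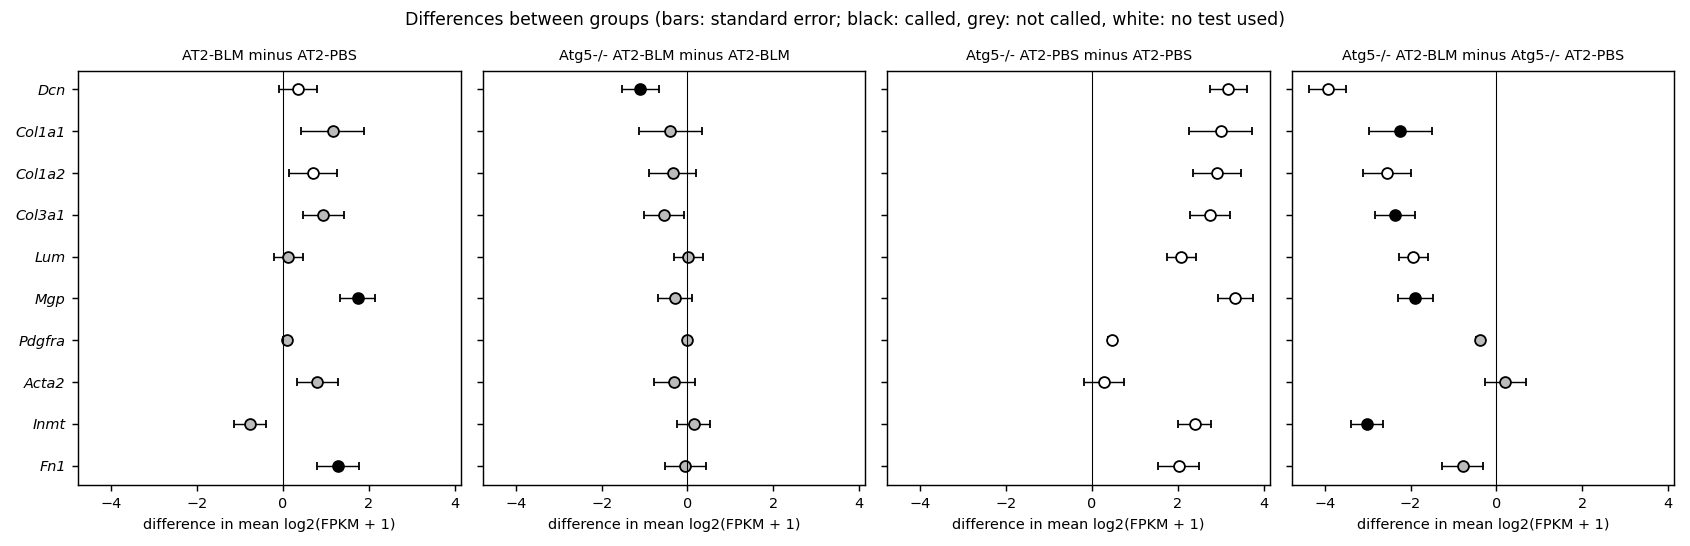
Difference in mean log2(FPKM + 1) between groups (horizontal axis) for each member (vertical axis) in 4 comparisons, 1 per panel, with standard error bars from limma. Black points met the criterion for a call, grey points did not and white points had no test that is used, so that calls appear for Mgp and Fn1 at left, for Dcn in the panel of Atg5 loss during BLM, and for Col1a1, Col3a1, Mgp and Inmt at right.

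Among the 3 comparisons in which members were tested, BLM in Atg5-/- mice gave the most calls, and all were lower. Atg5-/- AT2-BLM was below Atg5-/- AT2-PBS without overlap for Col1a1, Col3a1, Mgp and Inmt, while Fn1 and Acta2 overlapped. Of all tested genes, 11.8% were lower without overlap and 24.9% did not overlap in either direction. Dcn, Col1a2, Lum and Pdgfra were lower without overlap too, but are left out of that comparison. Dcn and Col1a2 were chosen for high values in Atg5-/- AT2-PBS, Lum passed the filter only through that group, and Pdgfra did not pass it. A call is given to a gene with p under 0.05 before adjustment and at least a 1.4-fold difference, the study's criterion. Of 6 members, 4 met it, where 10.7% of all tested genes met it as lower, 7.66% as higher and 18.4% in either direction. With an adjusted p under 0.05 as well, 3 did, beside 8.65% of all tested genes. The comparison shares its PBS samples with the contrast that chose the list, so Dcn, with a log2 difference of -3.93, and Col1a2, with -2.56, are given without a p. Lum, with -1.94, is given without a p too, since it passed the filter only through the group in which it was high. The shared PBS samples also mean that neither the lack of overlap nor the share of calls is support for a joint change. The list was drawn up with these samples known, so the p-values below describe each difference and are no independent support for it. Inmt fell by 3.02 on the log2 scale (SE 0.38, limma adjusted p = 0.000615), from 117 FPKM ± 67.5 (SD, n = 3) to 12.2 ± 2.59. Col3a1 fell by 2.36 (SE 0.47, adjusted p = 0.00822), Mgp by 1.89 (SE 0.41, adjusted p = 0.0126) and Col1a1 by 2.25 (SE 0.73, adjusted p = 0.0839). Fn1 differed by -0.79 (adjusted p = 0.387) and Acta2 by 0.21 (adjusted p = 0.869), neither beyond the spread between samples. Pdgfra, tested only when no filter was applied, differed by -0.39 (adjusted p = 0.0198), which is under the fold needed. Col1a1 was no longer called once Atg5-/- AT2-BLM replicate 1 was left out, and Fn1 was called lower, with -1.18, once replicate 3 of that group was.

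BLM in Atg5f/f mice gave a different picture, with Mgp and Fn1 higher and the proteoglycan and collagen genes without a call. Mgp rose by 1.74 on the log2 scale (SE 0.41, limma adjusted p = 0.0147), from 24.5 FPKM ± 18.3 (SD, n = 3) to 74.5 ± 25.3. Fn1 rose by 1.28 (SE 0.48, adjusted p = 0.0836), from 0.407 FPKM to 2.81. These were the members whose samples did not overlap, 2 of 10, where 40.2% of all tested genes did not overlap and 28.9% were higher without overlap. They were also the 2 called of the 7 tested, against 28.4% of all tested genes called, 20.6% as higher and 7.77% as lower, a share near that of the table as a whole. Lum is counted among the 7, but at 0 to 0.252 FPKM it could not reach a 1.4-fold difference on the log2(FPKM + 1) scale. Quantile scaling turned the balance of directions for all tested genes, to 1235 higher and 1398 lower here (2202 and 829 without it), 1177 and 1587 for Atg5 loss with PBS (1507 and 551), and 1148 and 1069 for BLM in Atg5-/- (818 and 1144). Of the 2 called members only Mgp also had an adjusted p under 0.05, as 17.4% of all tested genes did. Col1a1 differed by 1.16 (SE 0.73, adjusted p = 0.284), Col3a1 by 0.94 (SE 0.47, adjusted p = 0.178), Acta2 by 0.80 (adjusted p = 0.254), Lum by 0.13 (adjusted p = 0.817) and Inmt by -0.76 (adjusted p = 0.175). Dcn differed by 0.35 and Col1a2 by 0.70, without a test because the AT2-PBS samples took part in choosing them.

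The count in Atg5f/f mice turned on single libraries. Without AT2-BLM replicate 3, the call of Fn1 was lost, at 0.83, and only Mgp remained of the 7, at 1.49 (limma adjusted p = 0.0564). The difference of Col1a1 was then 0.20 and that of Col1a2 -0.00289. Without AT2-BLM replicate 1, 6 of 7 met the criterion, 5 higher (Mgp, Fn1, Col1a1, Col3a1 and Acta2) and Inmt lower. Without AT2-PBS replicate 2, in which Acta2 and the collagen genes were highest of the group, 4 met it, with Col3a1 and Acta2 joining Mgp and Fn1. Without AT2-PBS replicate 3, Fn1 was lost, at 1.14, and Inmt was called lower.

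Atg5 loss during BLM, the comparison that shares no sample with the one behind the list, gave 1 call among the members. All 10 overlapped between Atg5-/- AT2-BLM and AT2-BLM, where 13.4% of all tested genes did not. Lum, at 0 to 0.252 FPKM in these groups, is counted among the 9 tested but could not reach a 1.4-fold difference on this scale. Of the 9, only Dcn met the criterion, with a log2 difference of -1.10 (SE 0.43), while 5.16% of all tested genes did and 3.12% as lower. Its limma adjusted p was 0.619, and 1 gene in all, 0.00937% of those tested, was called with an adjusted p under 0.05. The mean of Dcn was 2.07 FPKM ± 0.597 (SD, n = 3) against 6.17 ± 3.28. AT2-BLM replicate 1, at 2.38 FPKM, lay inside the Atg5-/- AT2-BLM range of 1.67 to 2.76. The call was lost when replicate 2 or 3 of either group was left out, and without replicate 3 of Atg5-/- AT2-BLM Col3a1 was called instead, at -1.02. The other members differed by -0.54 (Col3a1), -0.40 (Col1a1), -0.35 (Col1a2), -0.31 (Acta2), -0.29 (Mgp), -0.0496 (Fn1), 0.015 (Lum) and 0.14 (Inmt), with adjusted p from 0.793 to 0.995. A p above the threshold with 3 samples a group does not show that the levels were equal.

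The members did not keep 1 ratio to each other from sample to sample. Col1a1 to Col1a2, the genes of the same trimer, was the steadiest, from 0.620 to 2.14 in the 12 samples. Dcn to Col1a1 was 2.44 to 9.86 in AT2-PBS, 0.483 to 4.93 in AT2-BLM, 1.24 to 4.44 in Atg5-/- AT2-PBS and 0.281 to 5.02 in Atg5-/- AT2-BLM. Mgp to Dcn was 2.04 to 8.98 in AT2-PBS and 3.16 to 6.21 in Atg5-/- AT2-PBS, which overlap, and 6.49 to 29.1 in AT2-BLM and 18.3 to 41.5 in Atg5-/- AT2-BLM. Fn1 to Col1a2 was 0.251 to 0.543 in AT2-PBS and 0.257 to 0.369 in Atg5-/- AT2-PBS, and 0.689 to 1.82 and 1.06 to 1.61 in the BLM groups. The Fn1 to Col1a2 ratio was thus higher in both BLM groups than in either PBS group, with no overlap. Col1a2 and Dcn were chosen for their rise in Atg5-/- AT2-PBS, which by itself lowers ratios to them there. In AT2-PBS, Fn1 was at 0.151 to 0.547 FPKM and Col1a2 at 0.351 to 2.09. The pair was picked from several, so the ratio is a description. Inmt to Dcn was 3.01 to 7.83, 1.09 to 6.64, 1.65 to 3.81 and 3.39 to 8.04 in the same order of groups.

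**Figure D3:**
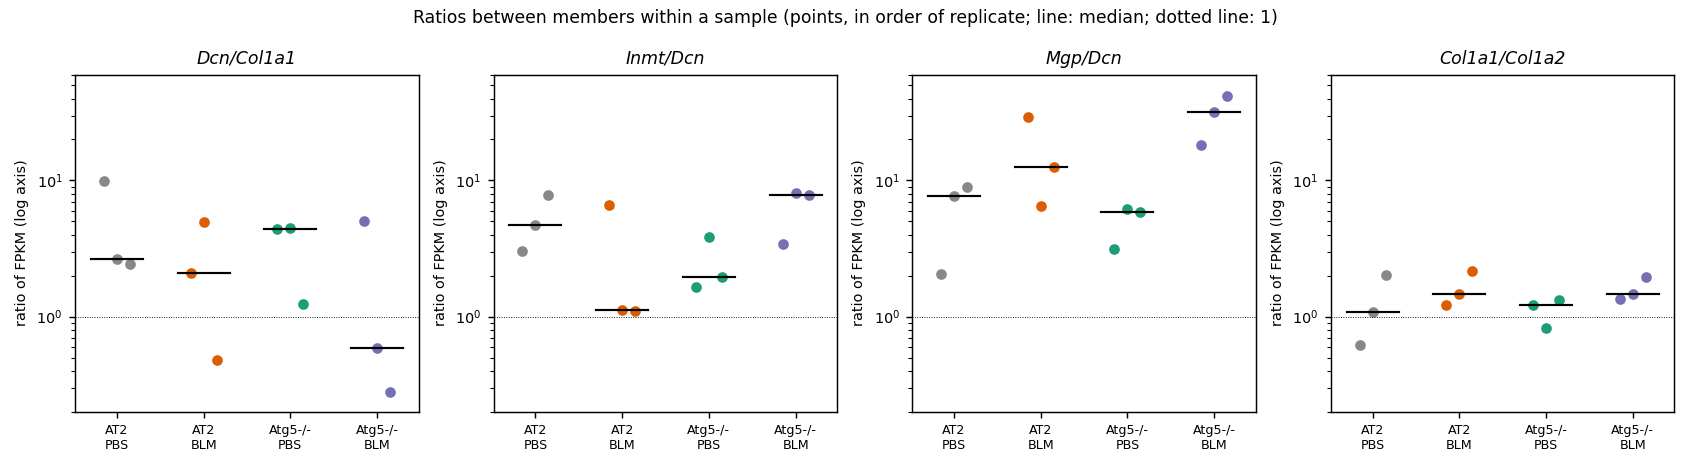
Ratio of the FPKM of pairs of members within a sample (vertical log axis) in the 4 groups (horizontal axis). Points are samples in order of replicate and lines are medians, and Col1a1 to Col1a2 keeps within 0.620 to 2.14 while Mgp to Dcn reaches 41.5 in Atg5-/- AT2-BLM.

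The same unevenness shows in correlations over samples, given as descriptions because the samples share groups and the genes share libraries. Col1a1 and Col1a2 correlated at r = 0.97 over the 12 samples and at 0.97 over the 9 without Atg5-/- AT2-PBS, on log2(FPKM + 1). Col1a1 and Fn1 correlated at 0.89 and 0.88. For Dcn the correlation rested on the Atg5-/- AT2-PBS samples, with r = 0.83 to Col1a2 over 12 and 0.36 over 9, and r = 0.85 to Inmt over 12 and -0.06 over 9. Acta2 went the other way, with r = 0.40 to Col1a1 over 12 and 0.82 over 9. Outside the members, the genes most like each over 12 samples were Colec12 for Dcn (r = 0.95, and 0.71 over 9), Has1 for Lum (0.98 and 0.0748), Igflr1 for Inmt (0.97 and 0.77), Il1f9 for Mgp (0.94 and 0.94), 1700017B05Rik for Col1a1 (0.94 and 0.89) and for Col1a2 (0.94 and 0.90), B3gnt7 for Col3a1 (0.94 and 0.79), Wfdc17 for Fn1 (0.92 and 0.90) and Rfc5 for Acta2 (0.90 and 0.95).

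Other genes of the matrix and of fibroblasts passed the filter only in part, as did the table as a whole, with 10675 of its 21878 genes. Of 25 further structural matrix genes 13 passed it, and 4 of these, Fbln1, Ogn, Prelp and Dpt, did so only through the Atg5-/- AT2-PBS samples in which they were high. Of the 9 others, 2 were called lower with BLM in Atg5-/- mice, the microfibril genes Mfap4 (log2 difference -2.09, limma adjusted p = 0.0131) and Mfap5 (-1.42, adjusted p = 0.0165), beside 10.7% of all tested genes. The collagen VI genes Col6a1 (1.21, adjusted p = 0.0394) and Col6a2 (1.19, adjusted p = 0.129) were called higher, beside 7.66%. For the 4 genes let in by that group the differences were -2.23 for Fbln1 (fibulin 1), -1.88 for Ogn and -1.25 for Prelp, both leucine-rich proteoglycans like decorin, and -1.45 for Dpt (dermatopontin), given without a test. Of 23 other fibroblast identity genes 8 passed the filter, 3 of them (Clec3b, Has1 and Twist2) only through Atg5-/- AT2-PBS. Of the 5 others 1 was called lower, Pi16 (-2.33, adjusted p = 0.00274). The untested differences were -2.84 for Clec3b, -1.65 for Has1 and -0.70 for Twist2. Clec3b was at 9.19, 9.26 and 3.46 FPKM, and elsewhere at 0 to 0.555. Pi16, a marker of adventitial fibroblasts, reached 10.1, 7.82 and 11.2 FPKM there and 0.139 to 3.52 elsewhere.

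With BLM in Atg5f/f mice 7 of the 13 matrix genes were called higher and none lower by limma, where 20.6% of all tested genes were called higher and 7.77% lower. They were Col6a2 (1.97), Fbln5 (1.79), Eln (1.51), Bgn (1.48), Col6a1 (1.29), Mfap5 (0.82) and Fbln2 (0.82), of which Col6a1, Col6a2, Fbln5 and Bgn had an adjusted p under 0.05. Without AT2-BLM replicate 3 the calls of Eln (0.86) and Fbln2 (0.56) were lost and 5 were left, with Col6a2 at 1.47 and Fbln5 at 1.57, beside 16.6% of all tested genes called higher. Among the 8 fibroblast identity genes Serpinf1 was higher (0.52) and Cthrc1, known from activated fibroblasts, lower (-1.15), and both calls were also made without that replicate. Of 14 collagen-processing genes 9 were tested, with P4ha2, Pcolce and Plod3 higher and P4ha1 and Bmp1 lower, and P4ha1 was lost without it. Of 13 smooth muscle and pericyte genes 7 were tested, and Mcam (2.74), Myl9 (1.95), Cnn1 (1.38) and Des (0.97) were higher. Without replicate 3 Myl9 was lost, at 1.08, and Cnn1 was at 0.81, Des at 0.75 and Mcam at 2.32. Median log2 differences were 0.82 for the 13 matrix genes, 0.0683 for the 8 identity genes and 0.17 for all genes tested. The 13 and the 8 include 4 matrix and 3 identity genes that passed the filter only through Atg5-/- AT2-PBS, none of them called here. Vim, the intermediate filament of mesenchymal cells and leukocytes, was at 2.29 to 6.42 FPKM in AT2-PBS, 9.20 to 17.7 in AT2-BLM, 87.8 to 111 in Atg5-/- AT2-PBS and 6.54 to 29.9 in Atg5-/- AT2-BLM. Atg5 loss during BLM gave 1 call of 13 in the matrix list, Fbln5 lower by -0.80 (limma adjusted p = 0.608), and 3 of 3 tested mesothelial genes lower, with Msln at -2.50 (adjusted p = 0.613), beside 3.12% of all tested genes. These rested on AT2-BLM replicate 3, and without it none of the 4 was called, with Msln at -1.34 and Fbln5 at -0.59, beside 1.4% of all tested genes called lower.

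Markers of other cells differed between the groups too. The sum of 7 club and ciliated cell genes, nearly all of it Scgb1a1, was 4969 to 11776 FPKM in AT2-PBS, 882 to 4973 in AT2-BLM, 23413 to 85024 in Atg5-/- AT2-PBS and 1174 to 2184 in Atg5-/- AT2-BLM. The sum of 12 leukocyte genes was 18.3 to 137, 149 to 217, 729 to 2042 and 58.7 to 602 FPKM in the same order, and that of 10 liver genes, led by Fabp1, Apoa1 and Mup3, was 3.34 to 528, 227 to 750, 1910 to 3295 and 165 to 1161. Some genes passed the filter also without Atg5-/- AT2-PBS. Of these, 8 of 8 leukocyte, 6 of 6 airway and 7 of 10 liver genes were called lower with BLM in Atg5-/- mice. The 4 members and 10.7% of all tested genes were called lower too. With a limma adjusted p under 0.05 as well, 3 leukocyte, 5 airway and 0 liver genes were, beside 8.65% of all tested genes in either direction. Outside Atg5-/- AT2-PBS, the order of samples by liver sum was not their order by Dcn. AT2-PBS replicates 1 and 2 had liver sums of 528 and 6.36 FPKM with Dcn at 6.16 and 5.91, and Atg5-/- AT2-BLM replicate 2, with a liver sum of 1161, had Dcn at 1.78. The airway sum had the order of Dcn within AT2-PBS, at 11776, 11640 and 4969 FPKM with Dcn at 6.16, 5.91 and 1.72. Within AT2-BLM it did not, at 2168, 882 and 4973 with Dcn at 2.38, 8.04 and 8.09. Inmt had the order of the airway sum within both Atg5-/- groups and in neither Atg5f/f group. Orders of 3 samples in a group are given only as a description. The sums of endothelial genes were 11.4 to 41.4, 39.1 to 45.9, 22.7 to 70.2 and 49.9 to 55.7 FPKM in the same order of groups. The range of Atg5-/- AT2-PBS overlapped that of each other group, and its replicate 3 had the highest sum, 70.2. The sum of the 10 AT2 genes was mostly Sftpa1, Sftpb and Sftpd. In Atg5-/- AT2-PBS against AT2-PBS, limma called Abca3, Lamp3, Etv5 and Lpcat1 lower and Sftpb higher. Of all 10675 tested genes, 551 were called lower and 1507 higher there. The part of airway, leukocyte, liver and endothelial RNA in the values of Dcn, the other members and Vim was not tested.

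**Figure D4:**
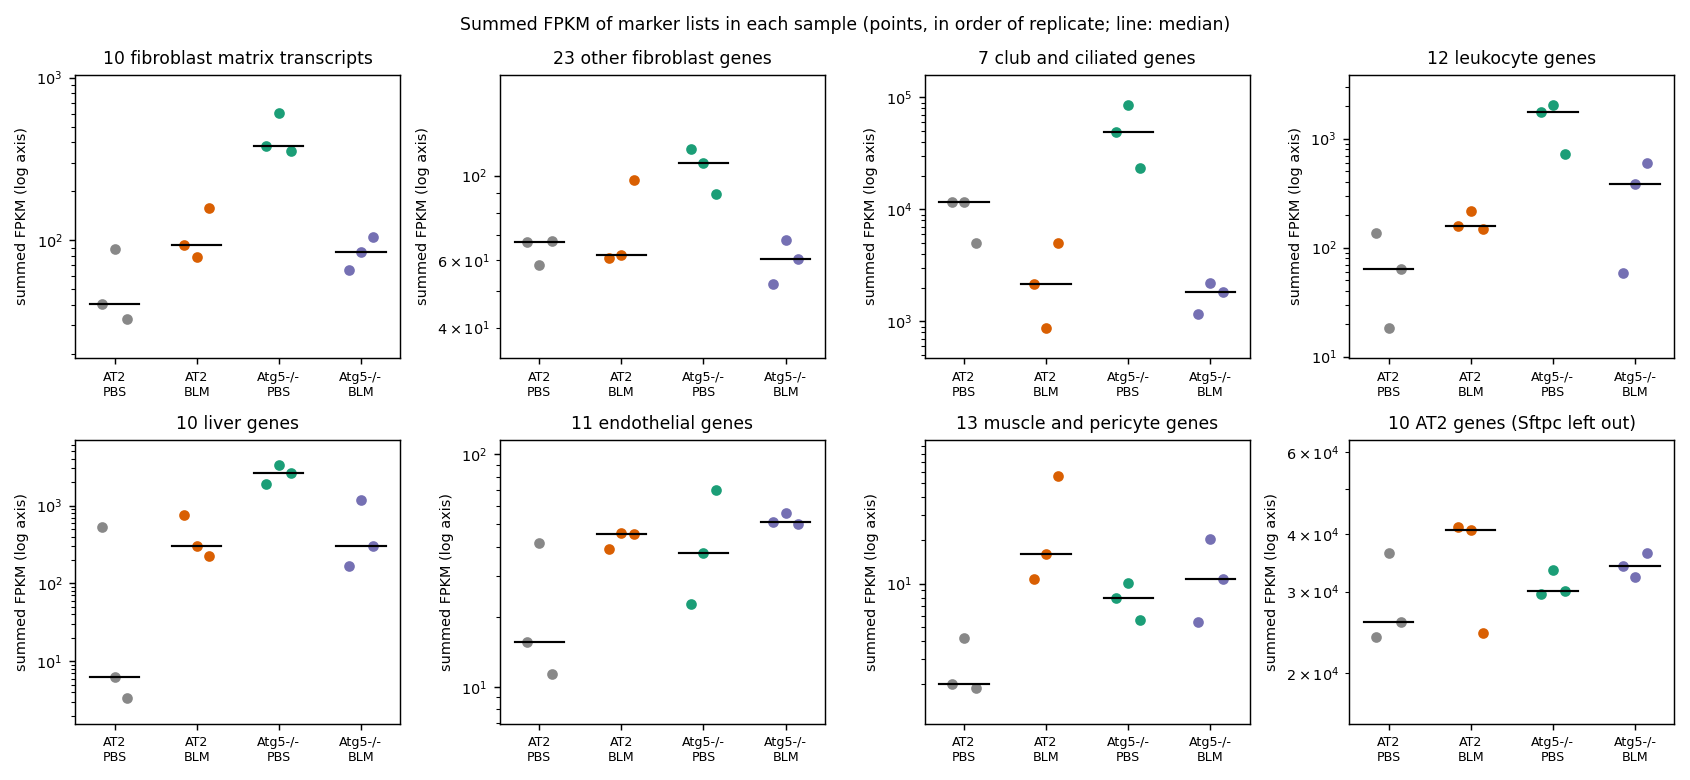
Summed FPKM (vertical log axes) of the members and of 7 marker lists in each sample, by group (horizontal axes), with points in order of replicate and lines at the median. The members, the airway, leukocyte and liver genes are highest in the 3 Atg5-/- AT2-PBS samples. The sum of the 10 AT2 genes, mostly surfactant genes, is 23958 to 41425 FPKM over all samples and does not show the less abundant AT2 genes.

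Within the mesenchymal markers the levels stayed unequal in each group. Genes for smooth muscle and pericytes summed to 1.89 to 4.18 FPKM in AT2-PBS, with Des, Cspg4 and Higd1b listed at 0 in all 3 samples, and to 10.8 to 56.2 in AT2-BLM, 5.58 to 10.04 in Atg5-/- AT2-PBS and 5.44 to 20.6 in Atg5-/- AT2-BLM. The highest of these sums was in AT2-BLM replicate 3, not in Atg5-/- AT2-PBS where Dcn, Lum and Inmt were highest. The identity genes Meox2, Fap, Fgfr4 and Wnt5a were listed at 0 in all AT2-PBS samples. Tcf21, a transcription factor of lung fibroblasts named here after its values were seen, reached 2.45, 4.59 and 0.875 FPKM in the Atg5-/- AT2-PBS samples and 0 to 0.327 in the other 9. Other genes of these lists were lower there. Sparc, the most abundant structural matrix gene, was at 97.0 to 122 FPKM against 135 to 288 in AT2-PBS. Cthrc1 was at 8.56 to 9.68 against 15.9 to 34.8. The 25 structural matrix genes, Sparc among them, summed to 181 to 224 FPKM against 184 to 333 in AT2-PBS. Sparc made most of each sum, so the sums do not give the direction of the other genes. Of the 13 tested, limma called 9 higher and 0 lower, beside 1507 higher and 551 lower of all 10675 tested genes. As 4 of the 13 passed the filter only through Atg5-/- AT2-PBS, and the list was drawn up with these samples known, that count is a description.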

How the data were processed

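RNA of sorted mouse AT2 cells was sequenced by the authors as stranded mRNA libraries. Reads were trimmed with Trimmomatic 0.36 and aligned to mm9, with STAR per the study's methods and HISAT2 per the submitters' processing notes, and the authors deposited FPKM per gene from Cufflinks 2.2.1. Whether these FPKM include the DESeq normalization that the methods name is not stated. Totals of fragments are unknown. Steps between low values put the samples' relative depth at 1 to 1.16, and such values cover no counting interval.

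The 10 members, the 14 other marker lists, the tests and the rule for naming genes were chosen with earlier results of these data known. The rule names all members, the 3 most abundant genes of each list, matrix and identity genes with an adjusted p under 0.05 and ranges that do not overlap, and for each member the 3 most correlated genes, of which the first is printed. Called list genes outside it were named after their values were seen. Groups came from sample titles. AT2-PBS replicate 3 carries another number in its description.

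Genes reaching 1 FPKM in 3 or more samples, 10675 in all, were fitted as log2(FPKM + 1) with limma 3.58.1 (R 4.3.3, mean-variance trend, 12 samples in 1 fit), after a test on simulated data. A call needed p under 0.05 before adjustment together with a 1.4-fold difference or more, the study's criterion. Adjusted p is Benjamini-Hochberg over all tested genes. An exact permutation of 3 against 3 samples cannot go below p = 0.1 and was not used. Alternatives were a pseudocount of 0.1, no filter, quantile and median-ratio scaling, only the compared groups, no trend, a replicate block, adjusted p, a fold of 2 and leaving out each sample. Promoter windows were read from RefSeq and matched to NCBIM37.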

Additional observations from a re-analysis of the deposited data

Results flagged for a closer look

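Mgp stood out among the members because its difference with BLM had opposite directions in the 2 genotypes. Every AT2-BLM sample (52.2 to 102 FPKM) was above every AT2-PBS sample (12.6 to 45.6), and every Atg5-/- AT2-BLM sample (50.5 to 69.5) was below every Atg5-/- AT2-PBS sample (180 to 313). The log2 difference with BLM was 1.74 in Atg5f/f and -1.89 in Atg5-/- mice, and the latter minus the former was -3.63. That difference was not tested, since it contains the contrast through which the list was chosen. The BLM groups themselves overlapped. The pattern was not particular to Mgp, since Vim and the leukocyte genes Ptprc and Itgam also rose without overlap in Atg5f/f and fell without overlap in Atg5-/- mice. The sums of leukocyte, airway and liver genes were highest in Atg5-/- AT2-PBS, the group whose day is not stated. Their part in the values of Mgp was not tested.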

How the results depend on the processing

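Of 472 values of single members under an alternative setting, 427 counted as the same. These kept their direction and their side of the threshold or, where no test was used, moved by less than 1 SD. Of the rest, 16 changed sign, 14 gained and 7 lost a call, and 8 values without a test moved by more than 1 SD. For BLM in Atg5f/f mice the count of 2 members called became 4 with a replicate block (3 higher, 1 lower), 1 with an adjusted p under 0.05, and 1 to 6 when 1 sample was left out. Quantile scaling, median-ratio scaling and a fit of only the compared groups gave 3, adding Inmt as lower. For Atg5 loss during BLM the count of 1 became 0 with an adjusted p under 0.05 in limma (Dcn alone had an unadjusted p under 0.05) and 0 to 1 when 1 sample was left out. For BLM in Atg5-/- mice the count with Lum included, 5, stayed between 4 and 6 in all settings. Lum has no test that is used, so the steadiness of this count is no support for the calls given above. In the marker lists, fits without AT2-BLM replicate 3 and counts of genes that pass the filter without Atg5-/- AT2-PBS were chosen once the data had been seen. The median over the members for Atg5 loss with PBS, 2.58, was 3.44 with a pseudocount of 0.1, 2.44 with quantile scaling and 2.36 to 2.87 when 1 sample was left out. Apart from the settings' own construction, the cause of these shifts was not tested.

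Signs changed only for differences without a call. Quantile scaling gave -0.12 for Lum with BLM in Atg5f/f and -0.12 for Acta2 with Atg5 loss under PBS, and median-ratio scaling gave 0.00139 for Fn1 with Atg5 loss during BLM. Leaving out 1 sample gave -0.11 to 0.82 for Dcn and -0.00289 to 1.08 for Col1a2 with BLM in Atg5f/f, and -0.0325 to 0.60 for Acta2 with BLM in Atg5-/-. For Atg5 loss during BLM it gave -0.96 to 0.57 for Col1a1, -0.73 to 0.36 for Col1a2, -0.0766 to 0.0857 for Lum, -0.66 to 0.0817 for Acta2 and -0.44 to 0.55 for Fn1.

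Same-numbered samples deviated from their group means with correlations of -0.24 to 0.23 over genes in the 4 comparisons, and of 0.0451 to 0.19 for BLM in Atg5f/f. Samples of different number were not set beside them, so this cannot settle whether the numbers pair the samples. The main fit used no pairing. With the replicate block the count stayed at 1 for Atg5 loss during BLM and, with Lum included, 5 for BLM in Atg5-/-. The median for Atg5 loss with PBS stayed at 2.58. Quantile scaling put the median of all genes at -0.0153 against 0.17 for BLM in Atg5f/f, at -0.17 against 0.0188 for Atg5 loss with PBS and at 0.11 against 0.0633 for BLM in Atg5-/-. With 3 samples a group and an unknown number of mice behind each, the precision of differences in genes under 1 FPKM is low.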
